A study of Homo sapiens with 74 samples.

Results

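The 10 genes described here are 6 inhibitors of cyclin-dependent kinases (CDKs) and 4 cyclins of the G1 phase. They were chosen by name, with earlier results of these data known, out of 28131 genes counted by RNA-seq. The cells were the established erythroleukaemia lines K562, of human origin, and HEL, likewise human. The inhibitors are CDKN1A, CDKN1B and CDKN1C of the CIP/KIP family and CDKN2A, CDKN2C and CDKN2D of the INK4 family, and the cyclins are CCND1, CCND2, CCND3 and CCNE1. The study asked what the DOT1L complex does in transcription. K562 cells were wild type (control), DOT1L-/- (DOT1L knockout, KO) or ENL-/- (ENL KO), and HEL cells were control or had a DOT1L knockdown (KD). No group carried a drug treatment in the labels. The labels do not say whether a knockout line was 1 clone, and they do not give the agent of the knockdown.

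DOT1L is the enzyme that methylates lysine 79 of histone H3 in the bodies of transcribed genes. ENL, whose gene symbol is MLLT1, is a reader of acetylated histones that belongs to the same complex. Passage from G1 into S phase is driven by CDK4 and CDK6 bound to a D-type cyclin and by CDK2 bound to cyclin E. These kinases phosphorylate RB1 and its relatives and so release the E2F factors that switch on the genes of DNA synthesis. INK4 proteins bind CDK4 and CDK6 and keep D cyclins off, whereas CIP/KIP proteins bind assembled cyclin complexes and block mainly CDK2. In the erythroid lineage cyclin D3 is known for setting the number of divisions that a precursor makes before it matures.

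K562 gave 2 control libraries that differ, 3 with DOT1L KO and 3 with ENL KO, because control columns 2 and 3 were identical in all 28131 genes and were counted as 1 sample. HEL held 2 control and 2 KD libraries. A K562 library held 15404944 to 29236703 counts, a HEL library 12151495 to 12811688. The targeted transcripts fell but were still counted, by a log2 fold change of -0.53 for DOT1L in the K562 KO, -0.48 for MLLT1 in the ENL KO and -1.64 for DOT1L in HEL. An antisense gene, PLEKHJ1, shares 661 exonic bases with DOT1L, and whether any of its reads were counted there was not tested. Erythroid genes were present in both lines, with 12 of 12 erythroid markers counted. A lane is named in the labels of the K562 control and of the DOT1L KO but in none of the ENL KO, so loss of ENL and a batch cannot be told apart. The labels do not say that replicates came from separate cultures, so p-values measure only the spread between these samples.

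Levels are given as RPKM, which is the count per kilobase of exon, scaled to a common library total,, so that genes can be compared with each other. In every group CCND3 was the most abundant of the 10 genes. Its mean was 109 RPKM in the K562 control and 185 RPKM in the HEL control (n = 2 each). In the K562 control it was followed by CCND2 at 38.9, CDKN2C at 26.8, CDKN1B at 16.1, CCNE1 at 13.2, CDKN1A at 5.56, CCND1 at 4.80, CDKN2D at 3.44 and CDKN1C at 0.224 RPKM, and the ranges of neighbours in that order did not overlap. In the HEL control the order after CCND3 was CDKN2D at 55.7, CDKN1B at 36.9, CDKN2C at 35.6, CCND2 at 22.5, CCNE1 at 3.34, CDKN1A at 2.94 and CCND1 at 0.0558 RPKM, with CCNE1 and CDKN1A overlapping. The tables of the lines were made and scaled separately, one from reads and one from fragments, so a level in HEL and a level in K562 are set side by side without a test.

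**Figure D1:**
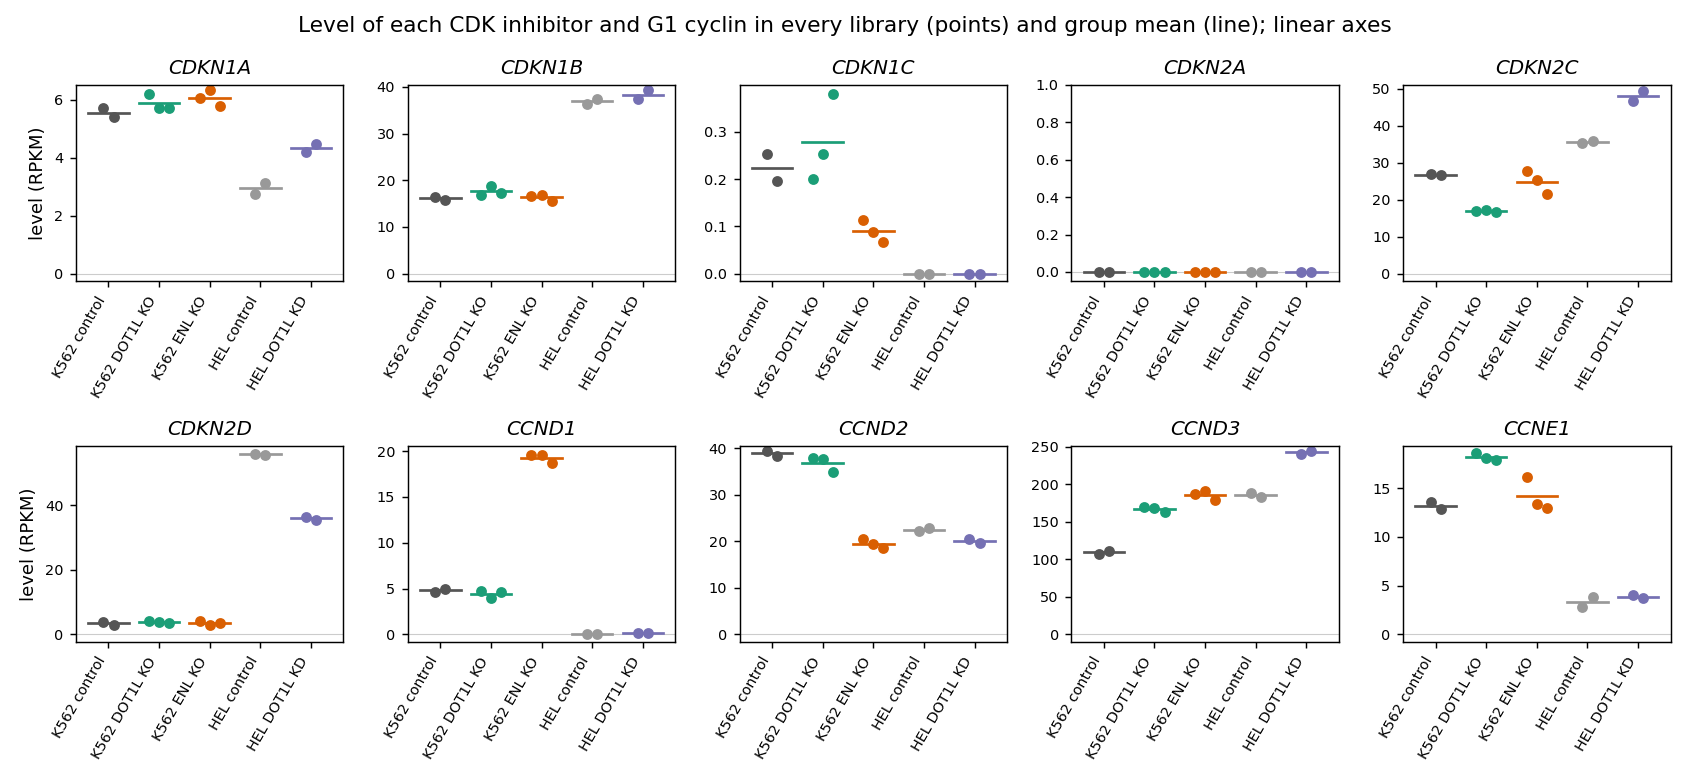
RPKM (vertical axis, linear, its own scale in each panel) of the 10 genes in each of the 12 libraries, grouped by line and genotype on the horizontal axis; points are libraries and lines are group means. CCND1 stands at 18.7 to 19.6 RPKM in the 3 ENL KO libraries and at 3.95 to 4.97 RPKM in the other K562 libraries, and CDKN2A is at 0 in all libraries.

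Members past the threshold included both cyclins and inhibitors in each comparison with a control. In the K562 DOT1L KO, 3 of 9 tested members passed an adjusted p of 0.05 in the quasi-likelihood test of edgeR, adjusted after Benjamini and Hochberg over all genes. CCND3 and CCNE1 were higher and CDKN2C was lower. Of all 14301 genes tested, 51.1% passed, 26.9% higher and 24.2% lower, so the members' share was not above that of all genes. In the ENL KO 4 of 9 passed against 41.0% of all genes (18.8% higher, 22.2% lower), with CCND1 and CCND3 higher and CCND2 and CDKN1C lower. In the HEL KD 5 of 7 passed against 55.0% of 12635 genes (27.0% higher, 28.0% lower). CDKN1A, CDKN2C and CCND3 were higher there and CDKN2D and CCND2 were lower. Counts of members this small were not tested against the share over all genes. The median log2 fold change of the tested members was 0.14, 0.05 and 0.22 in the 3 comparisons, against 0.01, 0.00 and 0.01 over all genes tested. Only the ENL KO moved any tested member by 2-fold or more (absolute log2 fold change of at least 1), namely CCND1, CCND2 and CDKN1C. CCND2 lay at this limit, with log2 fold changes of -1.04 to -0.97 over 15 alternatives. CCND1 in HEL had too few counts to be tested.

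**Figure D2:**
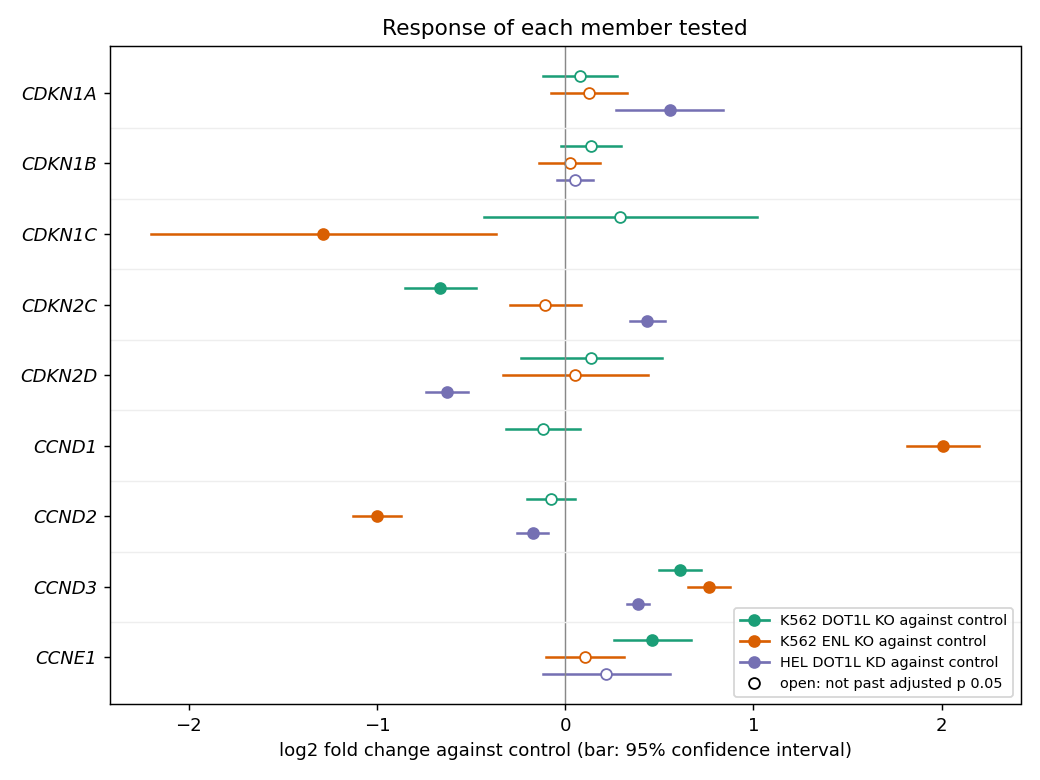
Log2 fold change against the control of the same line (horizontal axis) for the 9 members with counts, in 3 comparisons told apart by colour; bars are 95% confidence intervals and filled points are past an adjusted p of 0.05. CCND3 lies to the right of 0 in all 3, and CDKN2C lies at -0.66 in the K562 DOT1L KO and at 0.44 in the HEL KD.

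Among the CIP/KIP inhibitors, CDKN1B, which encodes p27, was the most abundant in every group. The K562 controls held 16.4 and 15.8 RPKM, the DOT1L KO libraries 16.9, 18.8 and 17.3 and the ENL KO libraries 16.6, 16.9 and 15.5. In HEL it was 36.4 and 37.5 RPKM in the controls and 37.4 and 39.2 after knockdown. No comparison with a control passed the test, although each DOT1L KO library was above each K562 control. The DOT1L KO and HEL comparisons did pass in some other settings, given in the closing section. The log2 fold changes were 0.14 in the DOT1L KO (95% confidence interval -0.02 to 0.30), 0.02 in the ENL KO (-0.14 to 0.19) and 0.05 in HEL (-0.04 to 0.15).

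CDKN1A encodes p21, the inhibitor that p53 induces. It stood at 2.76 and 3.13 RPKM in the HEL controls and at 4.19 and 4.47 RPKM in the KD, so each KD library was above each control. The rise was 1.47-fold (log2 0.56, SE 0.14, edgeR adjusted p 7.66e-04). The K562 controls held 5.71 and 5.40 RPKM, the DOT1L KO libraries 6.20, 5.70 and 5.73 and the ENL KO libraries 6.05, 6.33 and 5.78. Neither knockout passed the test, with log2 fold changes of 0.08 (95% interval -0.12 to 0.28) and 0.13 (-0.08 to 0.33). Its exons share 238 bases with the antisense gene DINOL, which had at most 2 counts in a library.

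CDKN1C, which encodes p57, was close to the limit of detection. The K562 controls had 21 and 16 counts of it, the DOT1L KO libraries 17, 29 and 31, the ENL KO libraries 9, 7 and 4, and all 4 HEL libraries 0. The ENL KO libraries all lay below the controls, and the log2 fold change was -1.28 (SE 0.42, edgeR adjusted p 0.0270). That call rested on few counts. Without control 1, without control 2, without ENL KO 2 or without ENL KO 3 the adjusted p was 0.172, 0.0529, 0.0680 and 0.0668. DESeq2 gave 0.0541, and the range over 15 alternatives, the replicate block aside, was 0.0128 to 0.172. In the DOT1L KO the log2 fold change was 0.29 (95% interval -0.43 to 1.02), which did not pass.

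Of the INK4 inhibitors, CDKN2A, which encodes p16 and in another reading frame ARF, had 0 counts in all 12 libraries. A count of 0 allows up to 3 counts, which is 0.103 to 0.247 CPM (RPKM without the division by length) from library to library and covers counting error only. CDKN2B, its neighbour and the INK4 gene outside the 10, also had 0 counts throughout. The INK4 messages that could be measured were therefore CDKN2C and CDKN2D.

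CDKN2C encodes p18, which restrains CDK4 and CDK6, and it responded to loss of DOT1L in opposite directions in the cell lines. In K562 it went from 26.9 and 26.8 RPKM in the wild type to 16.9, 17.1 and 16.8 RPKM after DOT1L knockout, so all KO libraries were lower and close to each other. The log2 fold change was -0.66 (SE 0.087, edgeR adjusted p 2.78e-05), or 0.631 of the control level. In the ENL KO it stood at 27.7, 25.4 and 21.4 RPKM, a spread that took in the controls, with a log2 fold change of -0.11 (95% interval -0.29 to 0.08). In HEL it stood at 35.3 and 35.9 RPKM in the controls and at 46.8 and 49.5 RPKM after knockdown, a rise of 0.44 on the log2 scale (SE 0.047, edgeR adjusted p 1.74e-11).

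CDKN2D encodes p19, the other INK4 inhibitor that these cells transcribed, and its level differed widely between the lines. It stood between 2.96 and 4.28 RPKM in all 8 K562 libraries, with log2 fold changes of 0.14 in the DOT1L KO (95% interval -0.23 to 0.51) and 0.05 in the ENL KO (-0.33 to 0.44). In HEL it stood at 55.7 and 55.6 RPKM in the controls and at 36.4 and 35.5 RPKM after knockdown. This was a fall to 0.646 of the control level (log2 -0.63, SE 0.055, edgeR adjusted p 2.70e-14). In HEL the INK4 messages thus crossed over: CDKN2D was above CDKN2C in both controls and below it in both KD libraries.

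Promoter windows of 250 bases before the transcription start are printed for 5 members that DOT1L loss changed past the threshold in at least 1 line, taken from RefSeq's table (GRCh38.p14). CCND2, which passed in HEL, has no entry in that table and is not printed. They are shown 5′ to 3′ on the gene's strand with GC boxes and CCAAT boxes, on either strand, in capitals. Where RefSeq gives several starts, the one nearest the 5′ end of the counted gene is shown. For CDKN1A the table gives 1 start, which lies inside the counted gene model (5′ end at 36676460). The windows are chr6:36678464-36678713 (CDKN1A, plus strand), chr1:50968456-50968705 (CDKN2C, plus), chr19:10568980-10569229 (CDKN2D, minus), chr6:42048689-42048938 (CCND3, minus) and chr19:29811741-29811990 (CCNE1, plus).
CDKN1A: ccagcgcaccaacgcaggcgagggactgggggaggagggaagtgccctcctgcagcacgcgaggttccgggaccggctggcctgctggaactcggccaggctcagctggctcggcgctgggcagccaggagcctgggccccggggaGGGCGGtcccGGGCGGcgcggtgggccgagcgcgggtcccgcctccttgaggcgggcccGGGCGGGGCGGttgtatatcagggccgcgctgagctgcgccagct
CDKN2C: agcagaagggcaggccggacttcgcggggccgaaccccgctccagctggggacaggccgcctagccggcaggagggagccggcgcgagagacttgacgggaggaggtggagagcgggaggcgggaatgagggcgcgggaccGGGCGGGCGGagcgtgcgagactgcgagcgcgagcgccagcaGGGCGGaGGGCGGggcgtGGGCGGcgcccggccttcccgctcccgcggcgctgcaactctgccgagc
CDKN2D: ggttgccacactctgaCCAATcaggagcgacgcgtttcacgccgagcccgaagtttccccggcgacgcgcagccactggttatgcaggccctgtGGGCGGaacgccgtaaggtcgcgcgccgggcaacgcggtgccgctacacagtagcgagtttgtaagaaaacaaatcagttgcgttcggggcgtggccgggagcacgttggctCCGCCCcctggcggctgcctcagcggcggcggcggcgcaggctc
CCND3: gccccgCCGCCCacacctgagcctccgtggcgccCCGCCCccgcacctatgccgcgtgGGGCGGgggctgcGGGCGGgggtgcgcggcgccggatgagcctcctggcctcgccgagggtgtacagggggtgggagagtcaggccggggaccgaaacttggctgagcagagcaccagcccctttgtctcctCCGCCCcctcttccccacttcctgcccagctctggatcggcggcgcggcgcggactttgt
CCNE1: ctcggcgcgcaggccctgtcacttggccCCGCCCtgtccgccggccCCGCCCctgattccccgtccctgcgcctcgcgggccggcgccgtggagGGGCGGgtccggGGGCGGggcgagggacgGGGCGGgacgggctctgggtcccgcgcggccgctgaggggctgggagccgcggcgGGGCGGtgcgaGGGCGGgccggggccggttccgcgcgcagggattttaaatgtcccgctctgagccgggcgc
The GC box (GGGCGG), the element bound by SP1 and its relatives, occurs 4 times in the window of CDKN1A, 5 times in CDKN2C, 2 times in CDKN2D, 5 times in CCND3 and 7 times in CCNE1. Some sites overlap each other, as in CDKN1A and CDKN2C. A GC box is held by 42.6% of the 35116 promoters of the table. The CCAAT box (CCAAT), held by 32% of promoters, occurs 1 time in CDKN2D. An E2F motif in 4 spellings (TTTCCCGC, TTTGGCGC, TTTCGCGC, TTTGCCGC), held by 2.79% of promoters, was matched in none of these windows, and neither was the E-box (CACGTG, 6.34%) nor the GATA motif (AGATAA, 9.17%). These matches depend on the start chosen. At starts not printed, windows of CDKN2C hold an E-box, windows of CDKN2C and CCND3 hold a CCAAT box, and some hold no GC box. The printed windows hold 76.4%, 77.2%, 67.6%, 74.4% and 81.2% G and C in their order, against a median of 58% over all promoters. All printed windows hold GC boxes, among them 2 in CDKN2D, which fell in HEL, and 5 in CDKN2C, which went both ways. A match of letters is a description only, and a link to the direction of change was not tested. Of the 10 members, 7 have an entry in that table.

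Among the D-type cyclins, the activating partners of CDK4 and CDK6, CCND3 (chromosome 6, 41934933 to 42048894, GRCh38, minus strand) was the member that rose in all 3 comparisons with a control. Its K562 controls stood at 107 and 111 RPKM, the DOT1L KO libraries at 169, 168 and 163, and the ENL KO libraries at 187, 191 and 179. In HEL it stood at 189 and 182 RPKM in the controls and at 240 and 244 after knockdown. Every depleted library was above every control of its line. The increases were 1.53-fold in the DOT1L KO (log2 0.61, SE 0.052, edgeR adjusted p 4.13e-07), 1.70-fold in the ENL KO (log2 0.77, SE 0.052, edgeR adjusted p 7.79e-08) and 1.31-fold in the HEL KD (log2 0.39, SE 0.029, edgeR adjusted p 8.42e-17). The K562 comparisons share their control libraries, so they are not independent of each other.

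Markers of the erythroid lineage moved in the same libraries. The summed level of the 12 erythroid genes listed was 6969 to 7516 CPM in the K562 controls, 10931 to 11522 in the DOT1L KO, 9032 to 9255 in the ENL KO, 7166 to 7288 in the HEL controls and 9842 to 10533 in the KD. Of these genes 11, 9 and 10 rose and 1, 1 and 0 fell in the 3 comparisons. ALAS2, the first enzyme of haem synthesis in red cells, rose by 2.67 on the log2 scale in the DOT1L KO and by 1.51 after ENL knockout. The part of such a shift in the rise of CCND3 was not tested. In such bulk samples, fewer cells of a type and less RNA per cell cannot be told apart.

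CCND1 (chromosome 11, 69641105 to 69654474, plus strand), a D cyclin that many blood cells hardly express, had the largest log2 fold change of the members in the comparisons with a control. The K562 controls stood at 4.63 and 4.97 RPKM, the DOT1L KO libraries at 4.79, 3.95 and 4.59, and the ENL KO libraries at 19.5, 19.6 and 18.7. The ENL KO was 4.02-fold above the control (log2 2.01, SE 0.089, edgeR adjusted p 1.26e-09). The DOT1L KO did not pass, with a log2 fold change of -0.12 (95% interval -0.31 to 0.08). In HEL the gene had 5 and 1 counts in the controls and 8 and 10 after knockdown, too few to be tested.

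CCND2 (chromosome 12, 4273762 to 4305352, plus strand), the second most abundant D cyclin, moved the other way in the ENL KO. The controls stood at 39.5 and 38.3 RPKM, the DOT1L KO libraries at 37.9, 37.8 and 35.0, and the ENL KO libraries at 20.4, 19.4 and 18.5. The ENL KO reached 0.500 of the control level (log2 -1.00, SE 0.059, edgeR adjusted p 1.97e-08). In the DOT1L KO the log2 fold change was -0.08 (95% interval -0.20 to 0.05) and did not pass, although no KO library reached the lower control. In HEL the gene stood at 22.2 and 22.9 RPKM in the controls and at 20.4 and 19.6 after knockdown, a small fall of 0.17 on the log2 scale (SE 0.042, edgeR adjusted p 4.20e-04). Its exons share 126 bases with CCND2-AS1, which had at most 7 counts in a library.

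The mix of D cyclins was therefore different in each genotype. Of the RPKM summed over the 3 genes in the K562 controls, CCND3 made up 71.4%, CCND2 25.4% and CCND1 3.14% on average. In the DOT1L KO the shares were 80.2%, 17.7% and 2.13%, and in the ENL KO they were 82.8%, 8.66% and 8.59%. The ratio of CCND2 to CCND1 was 8.54 and 7.71 in control libraries, 7.92, 9.57 and 7.62 after DOT1L knockout and 1.04, 0.987 and 0.993 after ENL knockout. After ENL knockout the levels per length of CCND1 and CCND2 were thus close, with CCND2 the higher in 1 library and CCND1 in the other two. The sum of all 3 rose from 153 ± 2.28 RPKM (SD, n = 2) to 208 ± 4.83 (SD, n = 3) in the DOT1L KO and 224 ± 7.28 (SD, n = 3) after ENL knockout, and from 208 ± 3.96 to 263 ± 2.24 RPKM (SD, n = 2 each) in HEL. In HEL, CCND3 made up 89.1% of the sum in the control and 92.3% in the KD, and CCND1 at most 0.0718% in any library. Shares and sums are descriptions and were given no test.

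**Figure D3:**
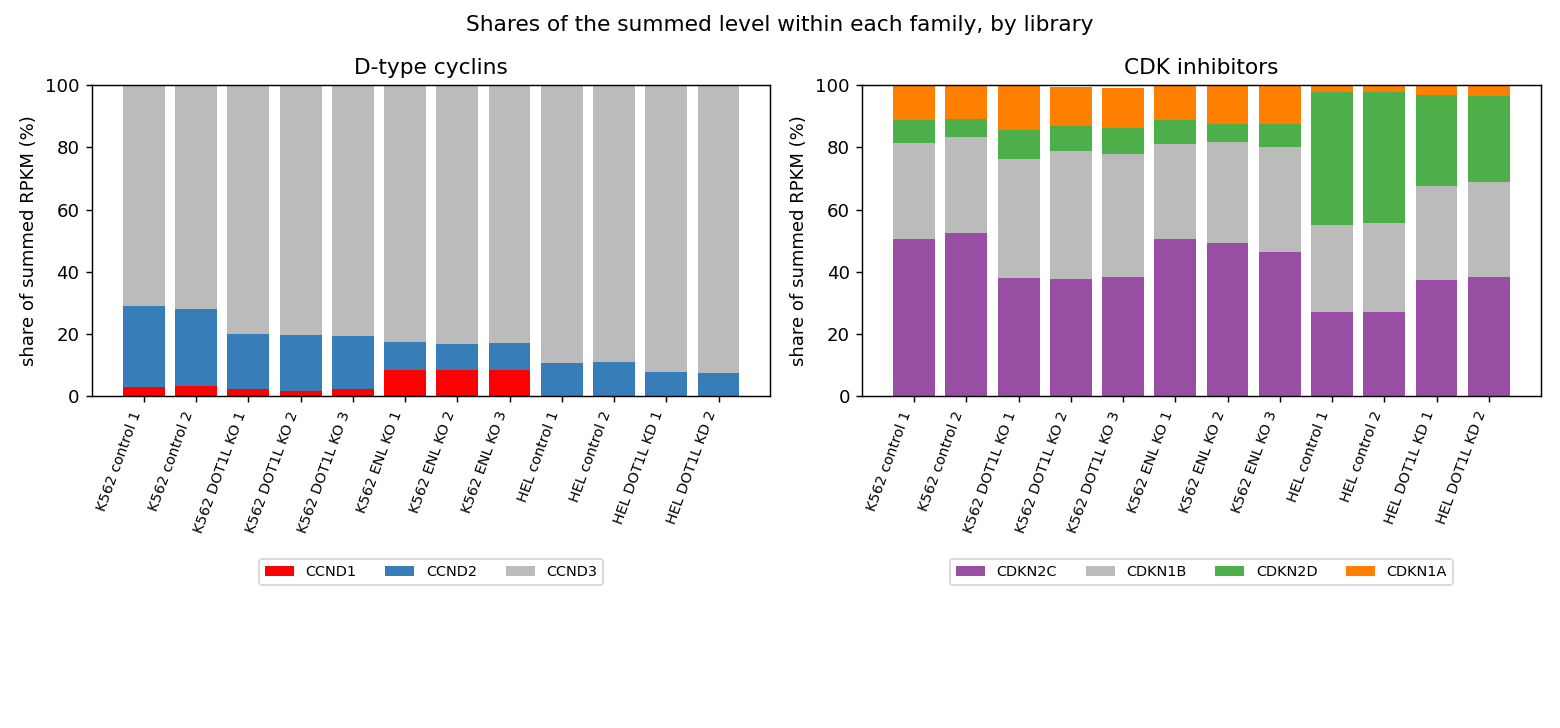
Share of the summed RPKM (vertical axis, percent) in each of the 12 libraries (horizontal axis) for the 3 D-type cyclins (left) and for 4 CDK inhibitors (right, where CDKN1C fills the thin rest). The CCND1 share is 8.54% to 8.64% in the ENL KO and at most 3.22% elsewhere, and the CDKN2D share falls from 42.5% to 28.4% on average in HEL.

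The inhibitors summed to 52.2 ± 1.49 RPKM (SD, n = 2) in the K562 controls, 44.6 ± 0.929 (SD, n = 3) in the DOT1L KO and 50.9 ± 4.33 (SD, n = 3) after ENL knockout. In HEL they summed to 131 ± 1.35 and 127 ± 2.71 RPKM (SD, n = 2 each), since CDKN2C and CDKN2D moved in opposite directions there. CDKN2C made up 51.5% of the inhibitor message in the K562 control and 38.0% in the DOT1L KO, where CDKN1B reached 39.7%. In HEL the share of CDKN2C went from 27.1% in the control to 38.0% in the KD.

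The nearest tested gene on each side was examined for the members that passed with a log2 fold change of at least 1, up or down, in the ENL KO, which were CCND1, CCND2 and CDKN1C. Beside CCND1, LTO1 (11.1 kb away) rose by 0.40 on the log2 scale (edgeR adjusted p 0.0231) and MYEOV (344 kb away) by 0.63 (edgeR adjusted p 2.97e-06). Both increases were smaller than that of CCND1. Beside CCND2, TIGAR at 15.8 kb and PARP11 at 400 kb did not pass, with log2 fold changes of 0.41 (SE 0.30) and -0.32 (SE 0.32). Beside CDKN1C, neither SLC22A18 (log2 0.16, SE 0.23) nor KCNQ1OT1 (log2 -0.30, SE 0.29) passed.

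CCNE1 (chromosome 19, 29811994 to 29824317, plus strand) encodes cyclin E1, the partner of CDK2 at entry into S phase. The K562 controls stood at 13.6 and 12.8 RPKM, the DOT1L KO libraries at 18.6, 18.1 and 17.9, and the ENL KO libraries at 16.1, 13.4 and 12.9. The DOT1L KO libraries lay above all other K562 libraries, 1.38-fold over the control (log2 0.46, SE 0.095, edgeR adjusted p 0.00112). The ENL KO overlapped the control (log2 0.10, 95% interval -0.10 to 0.31). In HEL the gene stood at 2.86 and 3.81 RPKM in the controls and 4.07 and 3.70 after knockdown, and its log2 fold change of 0.22 did not pass (95% interval -0.12 to 0.56).

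The knockouts of DOT1L and ENL, which target members of the same complex, were also compared with each other. Here 6 of 9 members passed, 3 higher and 3 lower in the DOT1L KO, against 60.2% of all genes (31.8% higher, 28.3% lower). CCND1 was lower in the DOT1L KO by a log2 difference of -2.12 (SE 0.077, edgeR adjusted p 4.66e-11) and CCND2 was higher by 0.92 (SE 0.054, edgeR adjusted p 4.95e-09). CDKN1C was higher by 1.58, on few counts, and CCNE1 by 0.36. CDKN2C was lower by a log2 difference of -0.56 (SE 0.080, edgeR adjusted p 4.07e-05). CCND3, which rose in both, was slightly lower in the DOT1L KO (log2 difference -0.15, SE 0.045, edgeR adjusted p 0.00961). With upper-quartile scaling that last difference was -0.11 with an adjusted p of 0.0558, and over 15 alternatives the adjusted p ranged from 0.00481 to 0.0558. CDKN1A, CDKN1B and CDKN2D did not pass.

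Whether DOT1L loss acted differently in HEL and K562 was tested as the difference between the log2 responses in a fit that joined 9 libraries of both lines. HEL had a knockdown and read counts where K562 had a knockout and fragment counts, so the line, the kind of depletion and the counting cannot be told apart. Of 8 members tested 5 passed, 3 higher and 2 lower, against 38.9% of 15367 genes (19.8% higher, 19.1% lower). CDKN2C differed most clearly, by 1.12 (HEL minus K562, SE 0.082, edgeR adjusted p 6.21e-10), and CDKN2D differed by -0.75 (SE 0.16, edgeR adjusted p 5.58e-04). Both kept their call under each other scaling, filter, tool, block or left-out library that was run.

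The other 3 differences were less stable. CDKN1A differed by 0.50 (SE 0.17, edgeR adjusted p 0.0236), which rose to 0.0552 without K562 control 1, 0.0502 without K562 DOT1L KO 2, 0.124 without HEL control 1, 0.0948 without HEL KD 2 and 0.0797 in DESeq2, with a range of 0.0119 to 0.124 over 15 alternatives. CCND3 differed by -0.21 (SE 0.066, edgeR adjusted p 0.0163), lost at 0.103 without K562 control 1, 0.105 without HEL control 1, 0.0852 without HEL KD 1 and 0.0516 without HEL KD 2, with a range of 0.00306 to 0.105. CCND1 differed by 1.71 (SE 0.64, edgeR adjusted p 0.0402), a value that rests on 5 and 1 counts in the HEL controls. It was lost without K562 control 2 (0.0535), HEL control 2 (0.297), HEL KD 1 (0.0637) or HEL KD 2 (0.160), within a range of 0.0152 to 0.297, and without HEL control 2 the difference itself was 0.98. CDKN1B, CCND2 and CCNE1 did not pass, with 95% intervals of -0.26 to 0.13, -0.24 to 0.08 and -0.59 to 0.15.

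The 31 other genes of the G1/S machinery that were listed include the kinases, the RB1 family, the E2F factors and the ubiquitin ligases that destroy cyclins and inhibitors. After DOT1L knockout in K562, 6 of 30 tested genes rose and 9 fell, in the ENL KO 9 of 30 rose and 3 fell, and in HEL 8 of 29 rose and 6 fell. Their median log2 fold changes were 0.01, 0.10 and 0.03. E2F1, an activator of S phase genes, rose in all 3 comparisons, by 0.99 (SE 0.11, edgeR adjusted p 3.69e-06), 0.51 (SE 0.11, edgeR adjusted p 0.00177) and 0.31 (SE 0.060, edgeR adjusted p 1.32e-05) on the log2 scale. CDK6, a kinase that D cyclins activate, went from 202 to 105 CPM in the DOT1L KO (log2 -0.94, SE 0.089) and from 173 to 120 CPM in the HEL KD (log2 -0.53, SE 0.042), with edgeR adjusted p of 1.24e-06 and 6.47e-16. In the ENL KO its log2 fold change was 0.16, which did not pass.

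CDK4 and RB1 were named after their values were seen. CDK4, the sister kinase of CDK6, rose by 0.28 in the DOT1L KO (edgeR adjusted p 0.00100) and by 0.11 in HEL (edgeR adjusted p 0.00983). SKP2, which marks p27 for destruction, fell in both K562 knockouts, with log2 fold changes of -0.57 and -0.79, and rose in HEL by 0.24. Its scaffold CUL1 likewise fell in K562, with log2 fold changes of -0.72 in the DOT1L KO and -0.33 after ENL knockout, and rose by 0.16 in HEL. For both genes the difference between the lines passed, at 0.83 for SKP2 (edgeR adjusted p 6.92e-07) and 0.90 for CUL1 (edgeR adjusted p 3.12e-08). RB1 rose in the K562 knockouts, by 0.44 and 0.42, and fell in HEL to a log2 fold change of -0.29.

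**Figure D4:**
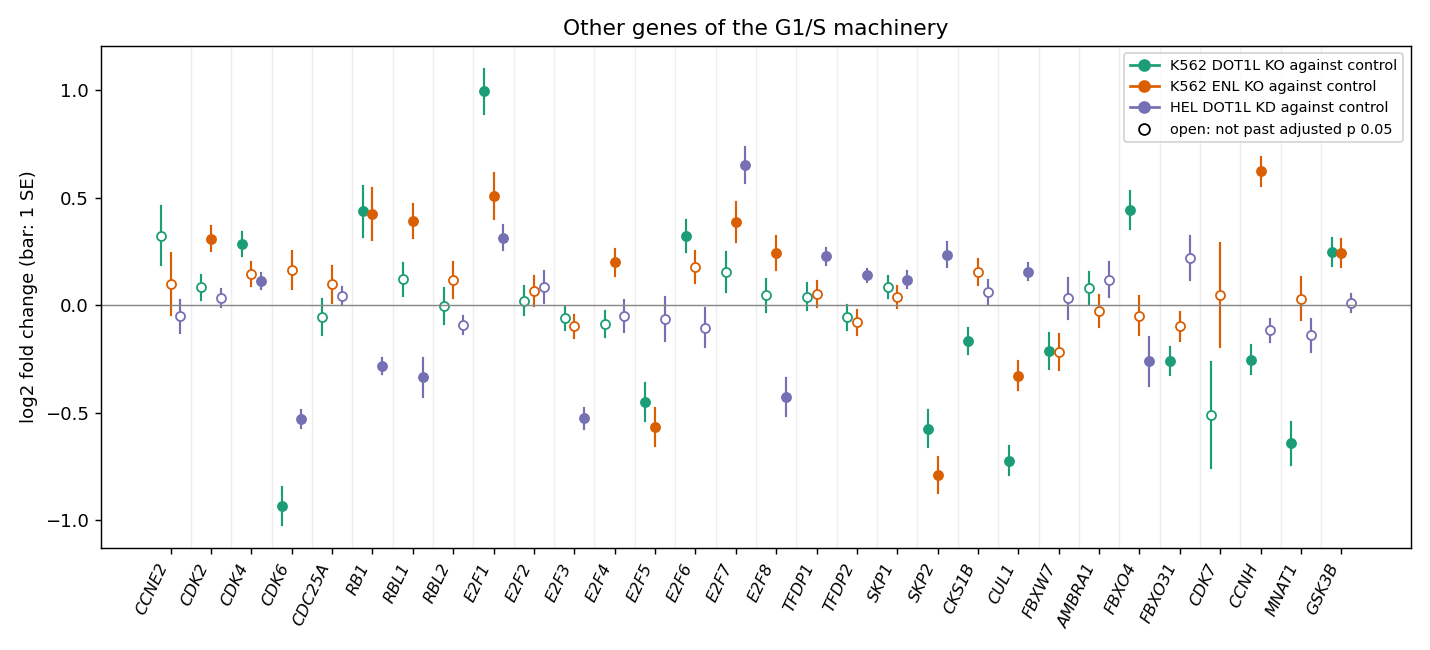
Log2 fold change against control (vertical axis, bars of 1 SE) of the 30 other G1/S genes with counts (horizontal axis) in 3 comparisons told apart by colour, with filled points past an adjusted p of 0.05. E2F1 lies above 0 in all 3, and CDK6 lies at -0.94 in the K562 DOT1L KO and -0.53 in HEL.

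Genes that lie downstream did not move as 1 block. Of 20 E2F target genes of DNA synthesis, 8 rose and 3 fell in the DOT1L KO, 13 rose and 2 fell in the ENL KO, and 7 rose and 10 fell in HEL, with medians of 0.10, 0.22 and -0.09. The helicase subunit MCM5 rose by 0.24 in the DOT1L KO and by 0.37 after ENL knockout, and had a log2 fold change of -0.41 in HEL. FEN1, a nuclease of DNA replication, and GINS2, a subunit of the replicative helicase, rose in HEL by 0.47 and 0.37. Of 15 proliferation and mitosis markers, 0 rose and 7 fell in the DOT1L KO, among them CDC25C (log2 -0.51) and AURKA (log2 -0.40). In the ENL KO 2 rose and 4 fell, and in HEL 5 rose and 3 fell, MKI67 by 0.40 upward.

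Of 18 tested p53 target genes, 5 rose and 6 fell in the DOT1L KO, 2 rose and 4 fell in the ENL KO, and 5 rose and 4 fell in HEL, where CDKN1A rose. In HEL, BTG2 rose by 1.38 while TP53INP1 had a log2 fold change of -1.39. Of the listed transcription factors and chromatin proteins known to regulate these 10 genes, 5 of 25 rose and 11 fell in the DOT1L KO, 3 rose and 9 fell in the ENL KO, and 5 of 23 rose and 6 fell in HEL. STAT5A, which acts on D cyclin genes downstream of cytokine receptors, fell in both K562 knockouts, with log2 fold changes of -1.31 and -0.67, and had a log2 fold change of 0.01 in HEL (edgeR adjusted p 0.745). FOXO3 and FOXO4, transcription factors that act on the CDKN1B gene, rose by 0.99 and 0.75 in the DOT1L KO and did not pass in the ENL KO or in HEL.

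Markers of neighbouring lineages were counted beside these results. The 10 megakaryocytic genes listed summed to 23.2 to 25.7 CPM in the K562 controls, 61.2 to 62.8 in the DOT1L KO and 141 to 148 after ENL knockout, with GP1BA and GP1BB at 0 in all K562 libraries. TUBB1, the platelet tubulin, rose by 2.83 on the log2 scale in the ENL KO and by 0.81 in the DOT1L KO. ITGA2B, an integrin chain of platelets, rose by 1.31 in the ENL KO and by 2.35 in the DOT1L KO. ITGB3, another integrin chain, rose by 2.42 in the ENL KO and by 1.27 in the DOT1L KO. In HEL the same list summed to 2745 to 2805 CPM in the controls and to 2167 in both KD libraries, and there 2 genes rose and 6 fell. The 13 markers of other cell types summed to 1185 to 1193 CPM in the K562 controls, 1014 to 1115 in the DOT1L KO, 1241 to 1393 in the ENL KO, 328 to 341 in the HEL controls and 600 to 602 in the KD. In K562 most of that sum came from KRT8 and KRT18, while the B cell marker MS4A1 was at 0 throughout. In HEL most of it came from PECAM1 alone, at 283 to 296 CPM in the controls and 519 to 525 CPM in the KD. Of the 6 markers tested in HEL, 4 rose and 1 fell. The part of these shifts in the members' changes was not tested.

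The genes most like a member over the 12 libraries were picked by Pearson's r of log2(CPM + 1) with each line centred on its own mean. For CDKN2C these were DNAAF5 (r = 0.984), RABL6 (0.974) and PUSL1 (0.973). DNAAF5 had log2 fold changes of -0.59 in the DOT1L KO, -0.13 in the ENL KO and 0.36 in HEL. For CCND1 they were CYBC1 (0.987), PLXNC1 (0.983) and HGS (0.981), of which PLXNC1 matched the size of the change, which was 2.1 on the log2 scale in the ENL KO. For CDKN2D they were CNP (0.941), HIRIP3 (0.939) and BCL6B (0.921), with log2 fold changes between -0.79 and -0.69 in HEL. These are the best of 8987 or 8988 genes compared and share libraries and depth, so they describe the pattern only.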

How the data were processed

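Polyadenylated RNA of 13 samples of 5 groups was measured. The other 61 samples of the series come from other assays, not analysed here. Whole-number counts per gene were deposited by the authors, of fragments for K562 and of reads for HEL, per the file headers. Per the submitters' processing notes the tools were fastp 0.13.1, HISAT2 2.1.0, Bowtie2 2.3.4.1, deepTools and featureCounts 1.6.1, with builds hg38 and hg19, and the role of each and the use of strand are not given in the sources used here. The gene models of the members lie at their GRCh38 places.

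Genes were kept with filterByExpr (minimum count 10, minimum total 15) and tested with edgeR 4.0.16 (R 4.3.3), TMM scaling and the quasi-likelihood test, with K562 (8 libraries), HEL (4) and a joint fit (9) separately. Adjustment was by Benjamini-Hochberg over all genes tested, at a threshold of 0.05. The test was also run on counts simulated from its own fitted spread, with planted 2-fold changes. That run cannot check smaller changes or a spread that the fit misses. A K562 control column identical to another was counted once, leaving 12 libraries. The biological coefficient of variation was 6.34% in K562 and 1.83% in HEL, so smaller changes pass in HEL. Between replicates, chi-squared per degree of freedom was 1.45 (control) and 1.31 (KD) in HEL, and 4.05 to 9.64 in distinct K562 pairs. HEL replicates thus differed by little more than counting error, and p-values should not be ranked across the lines. Floors of 3 counts cover counting error only. CPM and RPKM are TMM-scaled. Alternatives were other scalings, DESeq2 1.42.0, no filter, a fold minimum, a replicate block and leaving out libraries. Named genes were all 10 members, the targeted genes, at most 2 genes per list, direction and comparison (largest change past the threshold, at least 5 CPM), and the 3 genes most like the member that changed most. Some genes that this rule names are not reported here. The members and the lists (erythroid and megakaryocytic identity, other cell types, other G1/S machinery, E2F targets, proliferation, p53 targets, regulators) were chosen with earlier results of these data known.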

Additional observations from a re-analysis of the deposited data

Results flagged for a closer look

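The response to DOT1L loss differed between HEL and K562 in 5 of 8 members tested, by a test of the difference itself. Of all 15367 genes tested, 38.9% passed, and so small a count of members was not tested against that share. Values are HEL minus K562 on the log2 scale, from the quasi-likelihood test of edgeR, adjusted after Benjamini and Hochberg. CDKN2C differed by 1.12 (adjusted p 6.21e-10), since it rose in HEL and fell in K562. CDKN2D differed by -0.75 (adjusted p 5.58e-04), since it fell in HEL and did not pass in K562. CDKN1A differed by 0.50 (adjusted p 0.0236), CCND3 by -0.21 (adjusted p 0.0163) and CCND1 by 1.71 (adjusted p 0.0402), and these 3 lost the threshold when single libraries were left out. The line cannot be told apart from the kind of depletion.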

How the results depend on the processing

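Among 79 recomputed counts of members past the threshold, 71 stayed within 1.5 times the reported count. When a fold change of at least 1 on the log2 scale, up or down, was required as well, the counts were 0 in the K562 DOT1L KO, 2 between the knockouts, 0 in HEL and 2 for the difference between the lines. Leaving out 1 library at a time gave 2 to 5 members for that last difference. Of 630 recomputed log2 fold changes, 598 kept direction and side of the threshold. The 9 that changed sign were all of values that had not passed. By setting, CDKN1B in the ENL KO was -0.0014 with upper-quartile scaling and CDKN1A between the knockouts 0.0073 with library size only. With 1 library left out at a time, CDKN1B in the ENL KO ran from -0.0067 to 0.060, CDKN2D from -0.13 to 0.27 in the ENL KO, from -0.052 to 0.35 in the DOT1L KO and from -0.040 to 0.25 between the knockouts, and CCNE1 in the ENL KO from -0.0024 to 0.16. For these the cause was not tested. CDKN1B passed in the DOT1L KO at an adjusted p of 0.0416 with the identical columns kept apart, between the knockouts at 0.0408 with library size only, and in HEL at 0.0212 with upper-quartile scaling. The deviations of same-numbered libraries had r between 0.0886 and 0.634 in K562, not over 0.1 in every pair, and r = -0.03 in HEL, and not every K562 library correlated best with its own number. The numbers were therefore not taken to pair the samples, though most same-numbered K562 pairs did deviate together. With the replicate block the counts of members were 4, 4, 6, 5 and 5 in the order of the tests, CDKN1B being added in the DOT1L KO at 0.0444. Few counts limit the precision for CDKN1C (at most 31 in any library) and for CCND1 in HEL (at most 10).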
